A study of Fragaria vesca with 9 samples.

Results

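Mutant line 1 (Fvmate51-1) was compared with wild type (WT) in fruits of Fragaria vesca, the woodland strawberry, picked 26 days post anthesis. Both genotypes were sequenced as 3 libraries each of polyadenylated RNA, so the difference was taken between 6 of the 9 libraries of the series. The other 3 come from mutant line 2 (Fvmate51-2), a second mutant of the same gene, and are set beside line 1 for named genes. All 9 libraries entered the fit, so line 2 also shaped the estimate of spread behind each p-value. The members were all genes that reached 1 FPKM (fragment numbers divided by gene length and by the size of the library, as deposited) in at least 3 of the 6 libraries, which was 15495 of 34777 listed genes. They were grouped by the descriptions and protein domains that the authors' table gives, and 12507 of the tested genes carried one. The labels give tissue as fruit and do not say whether replicates were separate plants or what the mutation is, so each p-value is set against the spread among these libraries, which may be technical. A ± after a mean is the SD over 3 libraries, and after a log2 difference it is the SE.

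The mutated gene, FvMATE51, belongs to the MATE family (multidrug and toxic compound extrusion). MATE proteins use ion gradients to move organic compounds across the plasma membrane or the membrane of the vacuole, and in Arabidopsis and other plants some of them load flavonoids into the vacuole. A strawberry at this age is ripening: the receptacle softens, stores sugars and acids, and gathers pigment and aroma compounds, while the achenes on its surface hold the seeds. Ripening fruits also hold pathogenesis-related proteins, a set of small proteins, many of them secreted or vacuolar, that includes chitinases, glucanases, thaumatin-like proteins and the Bet v 1 family, and they are coated by a cuticle of cutin and wax. No description contains the name MATE51, so the level of the mutated gene is not analysed here.

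Listed genes held 31587667 to 40538911 fragments in line 1 libraries and 39187325 to 51649115 in WT libraries. The first principal component (73.8% of the variance) separated the genotypes, with line 1 at or below -30.1 and WT at or above 26.8. On the second (12.1%), line 1 replicate 2 (-14.7) and WT replicate 3 (-20.3) were negative and the remaining 4 libraries positive, from 3.98 to 12.5. Counts without this pair of libraries are given beside the lists they touch, and any count of list members that moved by over 1.5 times when 1 library was left out is given with that library.

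The labelled tissue was checked against markers of ripe flesh and of other parts of the fruit. Flesh ripening markers summed to 15207 to 16578 FPKM in line 1 and 19346 to 20889 FPKM in WT; 10 of 34 tested were lower and 3 higher, and 60 of 139 listed were at 0 in all line 1 libraries and 60 in all WT libraries. For flesh markers, 6 were lower without line 1 replicate 1. The polygalacturonase FvH4_6g41380, a wall-degrading enzyme of ripe flesh, reached 3711, 3706 and 3703 FPKM in line 1 and 4775, 4638 and 4696 FPKM in WT; its call was lost without line 1 replicate 1 (adjusted p = 0.0506, range over the alternatives 0.000335 to 0.192). Achene markers (seed storage, oleosin and LEA genes) summed to 351 to 455 FPKM in line 1 and 360.4 to 456 FPKM in WT, with 2 of 14 tested each way and 3 of 28 listed at 0 in all line 1 libraries, against 6 in all WT libraries. For achene markers, 1 was lower without line 1 replicate 3 or WT replicate 3 and 4 were lower without line 1 replicate 1. Vascular markers summed to 369 to 473 FPKM in line 1 and 369 to 413 FPKM in WT, with 5 of 14 higher and 2 lower, and with 31 of 82 listed at 0 in line 1 and 34 in WT. Pollen markers summed to 16.2 to 17.3 FPKM in line 1 and 14.9 to 16.3 FPKM in WT, with 1 of 2 tested lower, and 8 of 20 listed at 0 in line 1 and 12 in WT. The part of flesh, achene or vascular tissue in the results was not tested. In bulk tissue, fewer cells of a type and less RNA per cell cannot be told apart.

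limma called 5525 genes (35.7% of those tested), 2565 higher (16.6%) and 2960 lower (19.1%) in line 1, at a Benjamini-Hochberg adjusted p under 0.05. At least 2-fold differences on the log2(FPKM + 1) scale were fewer: 321 genes were higher (2.07%) and 364 lower (2.35%). The calls were not spread evenly over expression levels. Among the 945 genes with a mean of at least 100 FPKM, 12.2% were higher and 40.2% lower, whereas among the 5294 genes under 5 FPKM 18.2% were higher and 15.1% lower. The share of called genes that were higher was 46.4% with the deposited scaling. It was 62.1% after every library was set to an equal total FPKM, and 57.2% when voom was run on the recovered fragments. The median of all genes was 0.089 (log2) at equal totals and -0.0051 as deposited, so differences near 0 depend on the scaling. Line 1 also differed from line 2 in 4210 genes (27.2%) in the same fit.

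Gene length moved with the direction of the calls. Tested genes were put in 5 groups of equal number by listed length. In the group of the longest genes, 23.0% were higher and 7.81% lower in line 1, and in the group from 1014 to 1618 bases 12.1% were higher and 27.7% lower. The pair of libraries that stood apart carried a length pattern of their own. Line 1 replicate 2 minus the mean of line 1 replicates 1 and 3 had a median of 0.16 log2 units in the shortest group and -0.11 in the longest, and WT replicate 3 minus the mean of WT replicates 1 and 2 had 0.20 and -0.27. Without both libraries, the longest group had 26.9% higher and 10.65% lower. The part of length in the results for families of long or short genes was not tested, and their median lengths are given beside them.

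**Figure D1:**
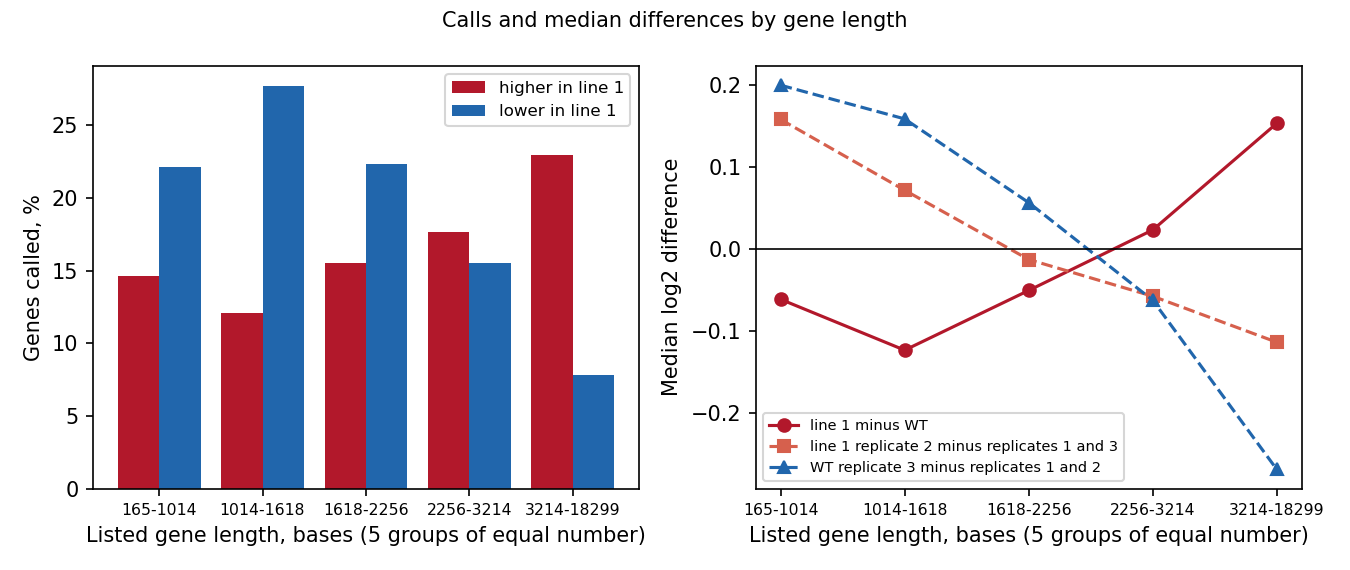
Calls and median differences over 5 groups of gene length, from the shortest to the longest genes (3099 tested genes each). The left panel gives the percent of genes higher and lower in line 1 than in WT; the right panel gives medians in log2(FPKM + 1) of line 1 minus WT and of each library that stood apart minus its own group's other replicates. The line 1 minus WT median was -0.12 at 1014 to 1618 bases and 0.15 in the group of the longest genes.

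Lists whose shares lay far from those of all genes included pathogenesis-related proteins, glutathione S-transferases, ribosomal proteins, histones and DNA replication on the lower side, and cuticle and wax genes, NAC factors and ABC transporters on the higher side. The lists were chosen with earlier results of these data known, so their counts are descriptions. Here and below, each count is to be read against 16.6% higher and 19.1% lower over all genes tested.

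**Figure D2:**
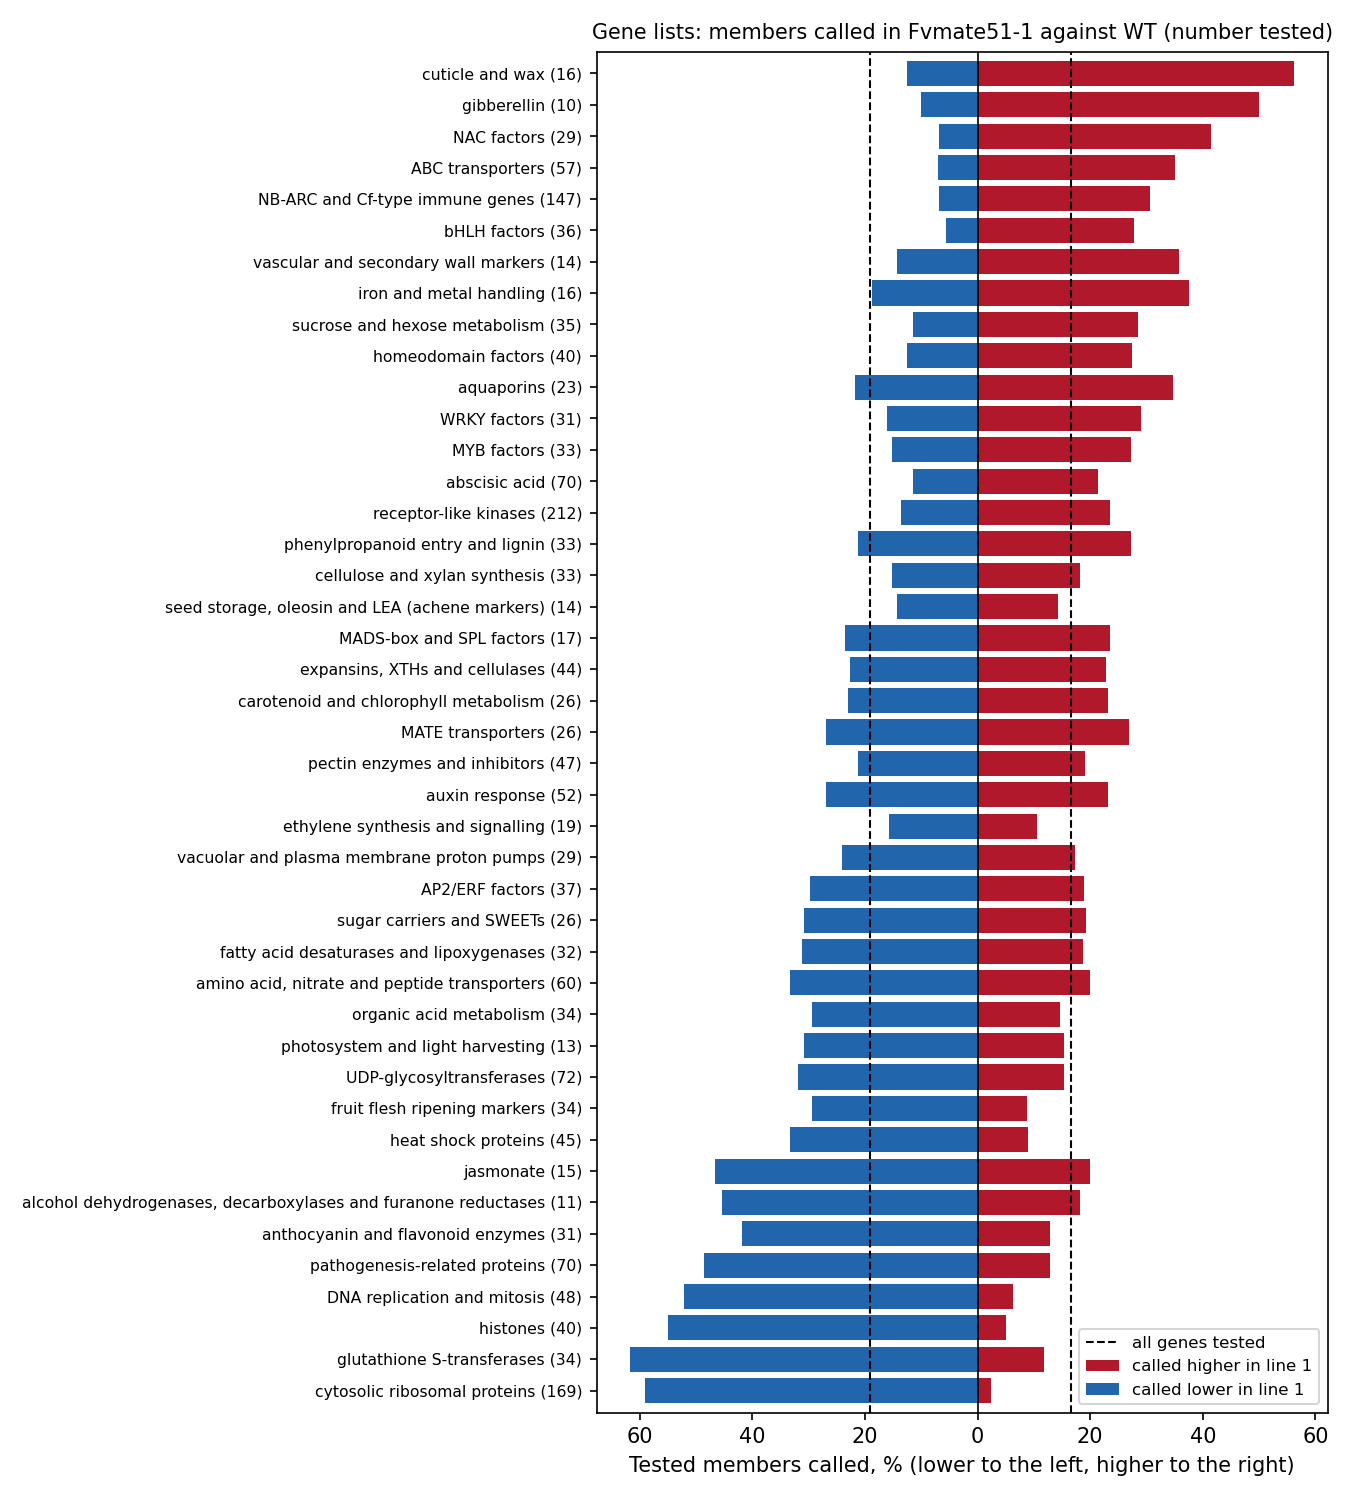
Percent of tested members called higher (to the right) and lower (to the left) in line 1 than in WT for each family list with at least 10 tested members. Dashed lines mark the shares over all genes tested, 16.6% higher and 19.1% lower; cuticle and wax genes reach 56.3% higher, and glutathione S-transferases 61.8% lower.

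Many genes of pathogenesis-related proteins fell in line 1. Of 70 tested members of the pathogenesis-related list, 34 were lower and 9 higher, with a median log2 difference of -0.33, and 25 of the lower ones fell at least 2-fold. Without line 1 replicate 2 and WT replicate 3, 33 were lower and 9 higher (median -0.21). For the pathogenesis-related list, 4 were higher without line 1 replicate 3. The median length of the list was 1386 bases, against 1927 bases over all genes tested. The list is not limited to secreted proteins. In the Bet v 1 family, described apart below, 14 genes fell at least 2-fold, and the counts of list and family may share genes.

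Endochitinase EP3 FvH4_4g10610 (chromosome 4, 14349198 to 14350693), a class of enzyme that cuts the chitin of fungal walls, reached 2.98, 1.702 and 1.51 FPKM in the line 1 libraries, against 93.9, 101 and 107 FPKM in the WT libraries. All line 1 values lay under the WT values, with a 48.8-fold lower mean (log2 difference -5.08 ± 0.15 (SE), limma adjusted p = 3.91e-09). Line 2 held 211 ± 7.81 FPKM, and the line 1 minus line 2 difference was -6.14 (adjusted p = 8.83e-10). A second EP3-type gene, FvH4_2g31570, had 0.415, 0.436 and 0.461 FPKM in line 1, 15.8 ± 0.879 FPKM in line 2 and 6.92, 6.11 and 8.19 FPKM in WT (line 1 minus line 2 -3.55, adjusted p = 3.05e-09). The endochitinase FvH4_1g10661 fell to 4.55 ± 1.42 FPKM in line 1, against 34.0 ± 4.15 FPKM in WT. All 4 tested genes with this chitinase domain were lower, against 19.1% of all genes tested. Chitinase-like protein 1 FvH4_4g11930, the most abundant of them, was 1.18-fold lower (113 ± 12.7 FPKM in line 1 and 133 ± 5.61 FPKM in WT). Its limma adjusted p of 0.0495 lay close to the threshold of 0.05. This gene did not pass the test between the lines (0.11, adjusted p = 0.362). The domain families named here and below by their members were singled out after their values were seen.

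Both tested PR-4 genes, which encode chitin-binding proteins with a Barwin domain, fell to near 0. PR-4B FvH4_3g26010 had 0.652, 0.190 and 0.489 FPKM in the line 1 libraries, against 14.997, 15.9 and 17.5 FPKM in the WT libraries (36.4-fold lower, adjusted p = 1.02e-08). PR-4A FvH4_3g05950 had 0.174, 0.102 and 0.0844 FPKM in line 1, 27.1 ± 2.46 FPKM in line 2 and 8.89, 11.8 and 12.3 FPKM in WT. Every line 1 value of both genes lay below 1 FPKM and every WT value above 8.

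Thaumatin-like proteins, the PR-5 family of antifungal proteins that also includes osmotins, had 5 of 13 tested members lower and 2 higher. Thaumatin-like protein 1a FvH4_6g16950 (chromosome 6, 10815317 to 10816866) held 3.63, 2.49 and 2.50 FPKM in the line 1 libraries, against 108, 116 and 122 FPKM in the WT libraries, 40.1-fold lower (log2 difference -4.92 ± 0.11, adjusted p = 8.17e-10). It was also the gene with the most negative difference from line 2 among those called in both contrasts, -6.62. Line 2 held 377 ± 8.21 FPKM. Thaumatin-like protein FvH4_5g01820 had 1.99, 0.894 and 1.59 FPKM in line 1 and 34.8, 36.1 and 46.2 FPKM in WT, and OSM34 FvH4_5g01840, listed nearby, 1.47 ± 0.277 FPKM in line 1 and 4.94 ± 1.12 FPKM in WT. Thaumatin-like protein 1 FvH4_2g38320 (37.0 ± 6.62 FPKM in line 1 and 38.4 ± 1.88 FPKM in WT) did not pass the test (adjusted p = 0.678).

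Beta-1,3-glucanases, the PR-2 enzymes that cut callose and fungal glucans, share a glycosyl hydrolase family 17 domain. Of 23 tested genes with this domain 5 were higher (21.7%) and 4 lower (17.4%), against 16.6% and 19.1% of all genes tested. FvH4_3g28370 (chromosome 3, 21335104 to 21337223) reached 1.74, 0.635 and 0.755 FPKM in the line 1 libraries, against 53.8, 47.5 and 58.8 FPKM in the WT libraries, 51.11-fold lower. Line 2 held 66.7 ± 4.68 FPKM. FvH4_6g05880, described as a glucanase but carrying a thaumatin domain, had 91.3, 83.4 and 85.8 FPKM in line 1 and 183, 184 and 215 FPKM in WT. A pair of genes described as glucanases and listed close together on chromosome 6 was higher: FvH4_6g24680 had 6.28 ± 0.630 FPKM in line 1 and 0.886 ± 0.128 FPKM in WT, and FvH4_6g24670, also with a thaumatin domain, 2.16 ± 0.286 FPKM in line 1 and 0.245 ± 0.0699 FPKM in WT.

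**Figure D3:**
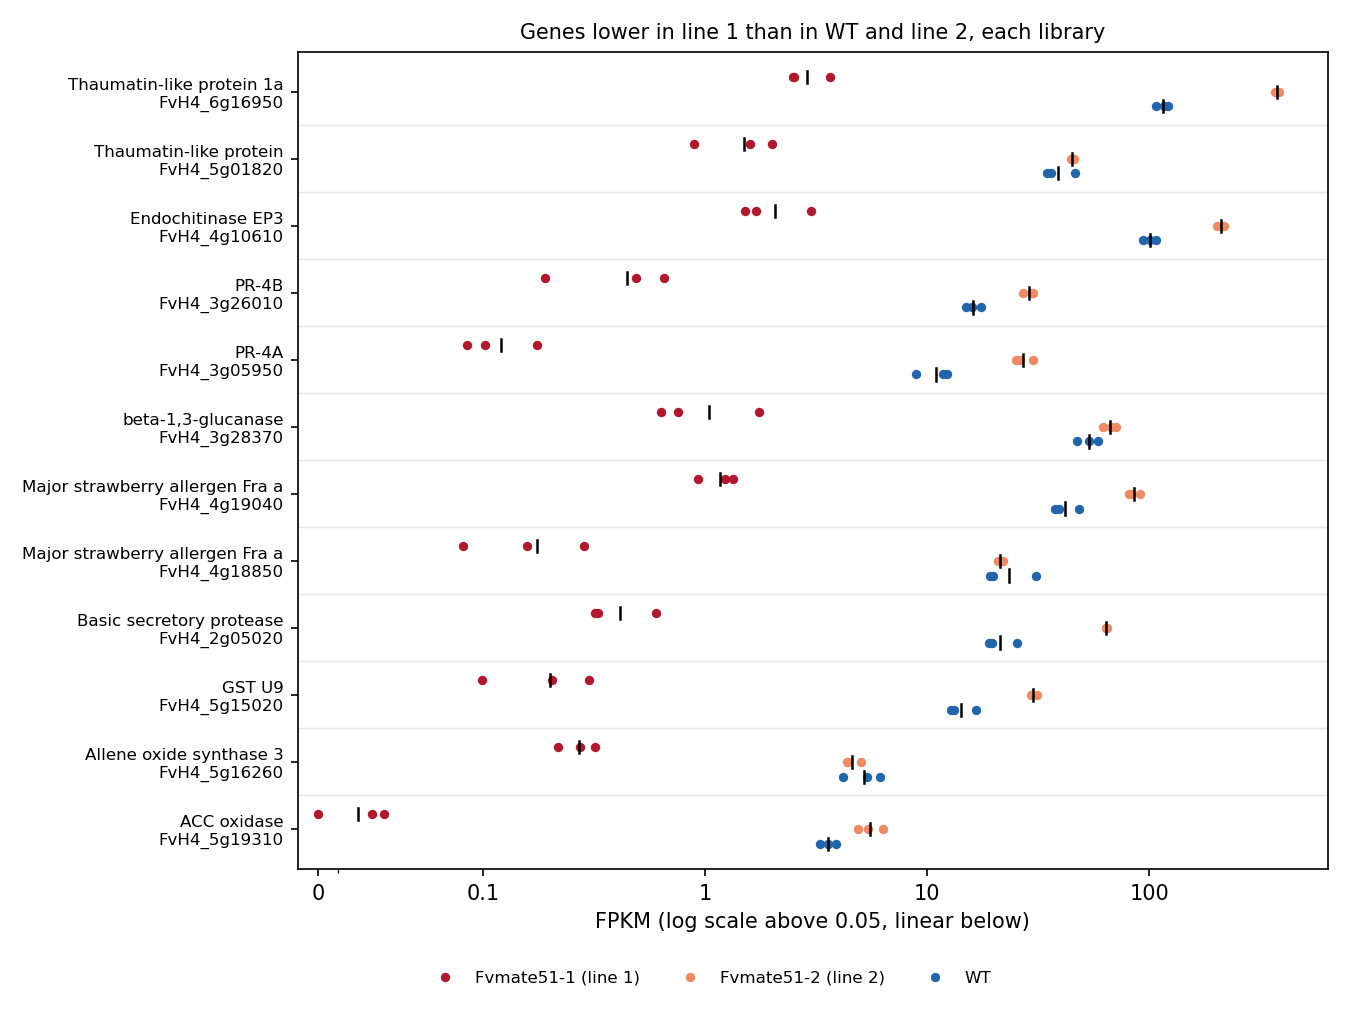
Levels of 12 genes that fell in line 1, in FPKM on a symmetric log axis (linear near 0), 1 point per library, with black ticks for means and line 1 above line 2 and WT in each row. Line 1 points lie below the line 2 and WT points for every gene shown, as in endochitinase EP3 FvH4_4g10610, at 1.51 to 2.98 FPKM in line 1 and 93.9 to 107 FPKM in WT.

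The Bet v 1 family (PR-10) holds the strawberry allergens Fra a, small cytosolic proteins with a hydrophobic cavity that bind flavonoids and other ligands. Of 39 listed genes with this domain 22 were tested, and 16 were lower and 0 higher in line 1 by limma-trend, with a median log2 difference of -1.99. At an unadjusted p under 0.05, 16 were lower and 1 was higher. The higher one, FvH4_5g00770, is listed with this domain but described as SNARE-interacting protein KEULE, not as an allergen. Of the tested members, 17 lie in a run on chromosome 4 between 22641365 and 23264081, and 15 of them fell (median -2.15). The 42 other tested genes of that stretch had 9 higher and 7 lower, with a median of 0.06. Copies in this family are close in sequence, and how the authors' counting treated fragments that fit several copies is not given in the sources used here, so values of single members are uncertain.

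The most abundant member of the run, Fra a 1-3 FvH4_4g19050, had 111, 110.4 and 93.9 FPKM in the line 1 libraries, against 304, 342 and 404 FPKM in the WT libraries (3.33-fold lower, adjusted p = 2.32e-06). Line 2 held 743 ± 78.7 FPKM. Fra a 1.08 FvH4_4g19040 had 1.23, 1.34 and 0.927 FPKM in line 1 and 39.1, 37.6 and 48.3 FPKM in WT, 35.8-fold lower, and another copy described as Fra a 1.08, FvH4_4g18850, had 0.0813, 0.285 and 0.157 FPKM in line 1 and 19.2, 19.8 and 30.8 FPKM in WT, 133-fold lower. Line 1 and WT libraries did not overlap in any of the 15 members that fell. Over all 15495 genes tested, all 3 line 1 values lay below all 3 WT values in 3807 and above them in 3474. The size of the falls ranged widely: Fra a 1-3 FvH4_4g19010, within the same run, was 1.46-fold lower (5.47 ± 0.358 FPKM in line 1 and 7.997 ± 1.22 FPKM in WT).

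Several members outside the Fra a group did not pass the test. FvH4_4g18960, described as Pru ar 1 and lying among the allergens that fell, had 29.8, 36.7 and 29.9 FPKM in line 1 and 36.0, 33.8 and 47.6 FPKM in WT, so the groups overlapped, and FvH4_4g18970 had 1.53 ± 0.410 FPKM in line 1 and 1.45 ± 0.402 FPKM in WT. The MLP-like protein gene FvH4_4g32700, the most abundant member by far, had 4954, 6295 and 4363 FPKM in line 1 and 4989.5, 4952 and 5480.1 FPKM in WT and did not pass the test (adjusted p = 0.992). It made up most of the family's summed level, which was 4624 to 6612 FPKM in line 1 and 5913 to 6704 FPKM in WT. The norbelladine synthase-type gene FvH4_7g34120 on chromosome 7 fell to 0.190 ± 0.0351 FPKM in line 1, against 4.05 ± 0.574 FPKM in WT, while line 2 held 17.1 ± 1.64 FPKM.

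**Figure D4:**
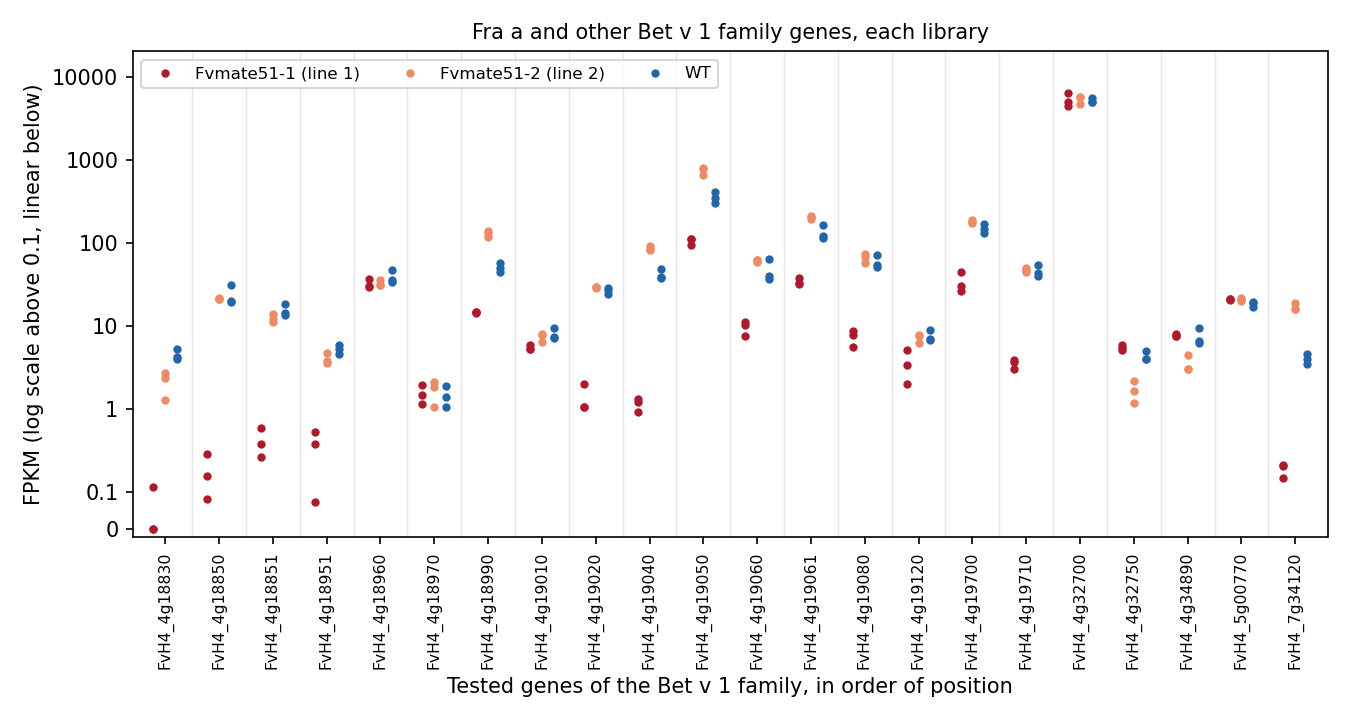
Members of the Bet v 1 family in FPKM per library on a symmetric log axis, line 1 left of line 2 and WT. The Fra a genes of the chromosome 4 run are lower in line 1, whereas Pru ar 1 FvH4_4g18960 (29.8 to 36.7 FPKM in line 1 and 33.8 to 47.6 FPKM in WT) and the MLP-like protein gene FvH4_4g32700 overlap between the groups.

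Other genes of defence and stress chemistry fell with them. Basic secretory protease FvH4_2g05020, of a secreted peptidase family, had 0.328, 0.598 and 0.317 FPKM in line 1 and 19.0, 19.6 and 25.5 FPKM in WT (51.5-fold lower). Glutathione S-transferase U9 FvH4_5g15020, an enzyme that joins glutathione to small molecules, had 0.204, 0.299 and 0.0989 FPKM in the line 1 libraries, against 12.8, 13.2 and 16.6 FPKM in the WT libraries, 70.8-fold lower (adjusted p = 4.45e-09). In both, every line 1 value lay below 1 FPKM and every WT value above 12. Line 2 held 64.0 ± 0.598 FPKM of the protease and 30.1 ± 1.01 FPKM of the transferase.

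Most tested glutathione S-transferases fell: 21 of 34 tested were lower and 4 higher, median -0.39, with 20 lower and 3 higher without line 1 replicate 2 and WT replicate 3. Their median length was 1255 bases. The most abundant, F11 FvH4_1g27460, had 549, 639 and 536 FPKM in line 1 and 989, 1003 and 1206 FPKM in WT, and F9 FvH4_6g38760 1.85, 1.89 and 1.85 FPKM in line 1 and 10.9, 11.3 and 14.9 FPKM in WT. The F9 gene stood at 26.7 ± 0.376 FPKM in line 2 (line 1 minus line 2 -3.27, adjusted p = 6.03e-09).

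Genes of jasmonate, a defence hormone made from membrane lipids, had 7 of 15 members lower and 3 higher. Allene oxide synthase 3 FvH4_5g16260, named for a type of enzyme that converts fatty acid hydroperoxides, had 0.273, 0.319 and 0.217 FPKM in line 1 and 4.16, 5.35 and 6.14 FPKM in WT (19.4-fold lower, adjusted p = 3.69e-07). The name alone does not show that this gene acts in jasmonate synthesis. The 3 named TIFY genes, encoding repressors of the jasmonate response in Arabidopsis, fell as well: TIFY 5A FvH4_3g05370 (17.3 ± 1.33 FPKM in line 1 and 32.3 ± 3.87 FPKM in WT), TIFY 10B FvH4_6g35140 (21.7 ± 1.42 FPKM in line 1 and 37.3 ± 2.67 FPKM in WT) and TIFY 3B FvH4_1g09690 (41.0 ± 1.65 FPKM in line 1 and 67.8 ± 5.43 FPKM in WT). Jasmonate-induced oxygenase 2 FvH4_2g07080, whose Arabidopsis relatives inactivate jasmonic acid, had 7.54, 8.04 and 8.24 FPKM in line 1, 39.98 ± 2.21 FPKM in line 2 and 16.6, 16.9 and 18.0 FPKM in WT. The most abundant member, the jasmonic acid carboxyl methyltransferase-type gene FvH4_2g39441, rose to 1018 ± 39.98 FPKM in line 1, against 803 ± 39.9 FPKM in WT.

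Of 19 tested ethylene genes 2 were higher and 3 lower (10.5% and 15.8%, against 16.6% and 19.1% of all genes tested), and without line 1 replicate 2 and WT replicate 3 the counts were 3 higher and 6 lower. For ethylene genes, 6 were lower without WT replicate 3. 1-aminocyclopropane-1-carboxylate oxidase FvH4_6g42090, the enzyme of the last step of ethylene synthesis, had 5.39, 4.83 and 5.32 FPKM in line 1 and 14.8, 15.5 and 21.5 FPKM in WT. The oxidase homolog FvH4_5g19310 was at 0, 0.0333 and 0.0276 FPKM in line 1, against 3.58, 3.27 and 3.87 FPKM in WT, and the homolog FvH4_4g03250 rose to 20.1 ± 1.66 FPKM in line 1, against 6.92 ± 0.186 FPKM in WT. ETHYLENE INSENSITIVE 3 FvH4_1g28720, the central transcription factor of the response and the most abundant member, had 79.4 ± 5.03 FPKM in line 1 and 76.6 ± 5.29 FPKM in WT (adjusted p = 0.629).

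More genes of immune receptors were higher than lower in line 1. Among NB-ARC and Cf-type genes, which encode intracellular and cell-surface immune receptors, 45 of 147 tested were higher and 10 lower, median 0.33. Their median length was 4013 bases, and in WT replicate 3 the list stood 0.40 log2 units (median) below WT replicates 1 and 2. Without line 1 replicate 2 and WT replicate 3 the counts were 32 higher and 15 lower, with a median of 0.13. For these receptor genes, 28 were higher without line 1 replicate 3, 5 were lower without line 1 replicate 1 and 6 were lower without line 1 replicate 3, WT replicate 1 or WT replicate 2. Receptor-like kinases had 50 of 212 higher and 29 lower (median 0.11, median length 2906 bases). For receptor-like kinases, 18 were lower without WT replicate 2 and 19 were lower without line 1 replicate 2.

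Some single receptors changed several-fold. The RPP8-like gene FvH4_5g32740 had 5.26, 5.26 and 3.87 FPKM in line 1 and 0.620, 0.688 and 0.761 FPKM in WT, and the Cf-9-type receptor FvH4_7g10111 9.39, 6.62 and 8.87 FPKM in line 1 and 1.18, 1.15 and 0.830 FPKM in WT. Disease resistance protein Roq1 FvH4_1g04740 fell to 0.0441 ± 0.0128 FPKM in line 1, against 6.44 ± 1.33 FPKM in WT. Line 2 held 5.87 ± 0.259, 10.2 ± 0.127 and 0.0644 ± 0.0341 FPKM of these 3 genes, and the line 1 minus line 2 differences (-0.25, -0.28 and -0.03) did not pass the test. The cysteine-rich receptor-like kinase FvH4_3g02833 did differ between the lines, with 0.110, 0.172 and 0.605 FPKM in line 1, 12.5 ± 0.550 FPKM in line 2 and 6.05, 6.49 and 6.49 FPKM in WT. WRKY factors, transcription factors of the defence response, had 9 of 31 higher and 5 lower. For WRKY factors, 4 were higher without line 1 replicate 3 or WT replicate 3 and 5 were higher without line 1 replicate 1. Both named WRKY 75 genes fell, FvH4_6g53770 (9.69 ± 1.01 FPKM in line 1 and 15.8 ± 0.860 FPKM in WT) and FvH4_4g23480 (3.42 ± 0.616 FPKM in line 1 and 7.60 ± 0.992 FPKM in WT).

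Many genes of the surface lipids were higher in line 1. In the cuticle and wax list 9 of 16 tested genes were higher, 2 were lower and 5 did not pass the test, median 0.32, and without line 1 replicate 2 and WT replicate 3 the counts were 8 higher and 2 lower (median 0.27). CER1 FvH4_7g08590 (chromosome 7, 8448262 to 8452398), the aldehyde decarbonylase that makes wax alkanes in Arabidopsis, had 22.7, 20.4 and 21.6 FPKM in the line 1 libraries, against 0.0728, 0.0606 and 0.239 FPKM in the WT libraries. Its line 1 mean was 174-fold higher (log2 difference 4.33 ± 0.13, adjusted p = 5.21e-09), and line 2 held 1.33 ± 0.446 FPKM. Another CER1 gene listed nearby, FvH4_7g08560, is more abundant and did not pass the test, with 130.1, 105 and 132 FPKM in line 1 and 113, 119.7 and 111 FPKM in WT, although it did without line 1 replicate 2 (adjusted p = 0.0458, range over the alternatives 0.0335 to 0.844).

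Fatty acyl-CoA reductase 5 FvH4_3g24570, of the family that makes the primary alcohols of wax and suberin, had 16.1, 17.3 and 16.9 FPKM in line 1, 0.639 ± 0.0486 FPKM in line 2 and 1.14, 1.10 and 1.35 FPKM in WT. The nearby gene of fatty acyl-CoA reductase 3 FvH4_3g24571 rose to 10.4 ± 1.13 FPKM in line 1, against 3.49 ± 0.637 FPKM in WT. Of the 3-ketoacyl-CoA synthases, which lengthen the acyl chains of wax, number 6 FvH4_4g27420 rose to 9.28 ± 1.25 FPKM in line 1, against 3.13 ± 0.399 FPKM in WT, and number 20 FvH4_4g01980 to 22.7 ± 2.36 FPKM in line 1, against 15.7 ± 1.19 FPKM in WT. The 2 genes that fell are both described as ECERIFERUM 2, an acyltransferase-like protein that Arabidopsis needs for the longest wax chains. FvH4_5g34850 had 11.3, 11.2 and 10.5 FPKM in line 1 and 58.6, 57.9 and 63.0 FPKM in WT and FvH4_5g34840 36.2, 38.1 and 34.4 FPKM in line 1 and 66.3, 67.8 and 69.5 FPKM in WT.

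A pair of transporter genes named for such lipids rose too. ABCG11 FvH4_6g06950, which in Arabidopsis carries wax and cutin precursors out of the epidermis, had 15.9, 14.0 and 15.4 FPKM in line 1, 6.71 ± 0.548 FPKM in line 2 and 6.30, 6.60 and 5.56 FPKM in WT. ABCG1 FvH4_1g20410 had 3.23, 3.12 and 2.98 FPKM in line 1 and 0.0718, 0.0498 and 0.0911 FPKM in WT, 43.9-fold higher. Over all ABC transporters, 20 of 57 tested were higher and 4 lower (median 0.21, or 0.13 with 24 higher and 6 lower without line 1 replicate 2 and WT replicate 3). Their median length was 3962 bases, and without WT replicate 3 alone the median was 0.08. For ABC transporters, 2 were lower without line 1 replicate 3 and 7 were lower without WT replicate 3.

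Further lipid and secretion genes rose in line 1 and were also higher there than in line 2. The palmitoyl-monogalactosyldiacylglycerol desaturase gene FvH4_3g28040, named for an enzyme of plastid membrane lipids, had 54.3, 59.6 and 60.1 FPKM in the line 1 libraries, against 4.52, 5.24 and 4.66 FPKM in the WT libraries (12.1-fold higher). A second gene of this description, FvH4_6g43640, had 6.41, 7.55 and 7.29 FPKM in line 1 and 0.973, 1.01 and 1.34 FPKM in WT. Line 2 held 1.44 ± 0.521 and 1.56 ± 0.168 FPKM of these genes, and both differences between the lines passed the test (4.62 and 1.66). The glycerophosphodiester phosphodiesterase-type gene FvH4_3g13670 had 82.9, 77.9 and 82.6 FPKM in line 1 and 9.82, 8.94 and 7.92 FPKM in WT (9.12-fold higher), and the GDSL lipase APG FvH4_6g32640 22.2, 23.4 and 20.9 FPKM in line 1 and 6.12, 6.13 and 5.87 FPKM in WT. Tricyclene synthase FvH4_6g43791, a monoterpene synthase described from Lotus japonicus, had 15.2, 16.9 and 13.8 FPKM in line 1 and 0, 0.236 and 0.0386 FPKM in WT, and line 2 held 0.0457 ± 0.0519 FPKM.

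Against these rises stood the delta-12 acyl-lipid desaturase FvH4_3g44270, an enzyme that adds a further double bond to oleic acid in other plants. It had 11.9, 9.94 and 11.9 FPKM in line 1 and 362, 381 and 293 FPKM in WT. Line 2 held 13.5 ± 0.541 FPKM (line 1 minus line 2 -0.24, adjusted p = 0.117). In the whole list of desaturases and lipoxygenases, 6 of 32 were higher and 10 lower.

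**Figure D5:**
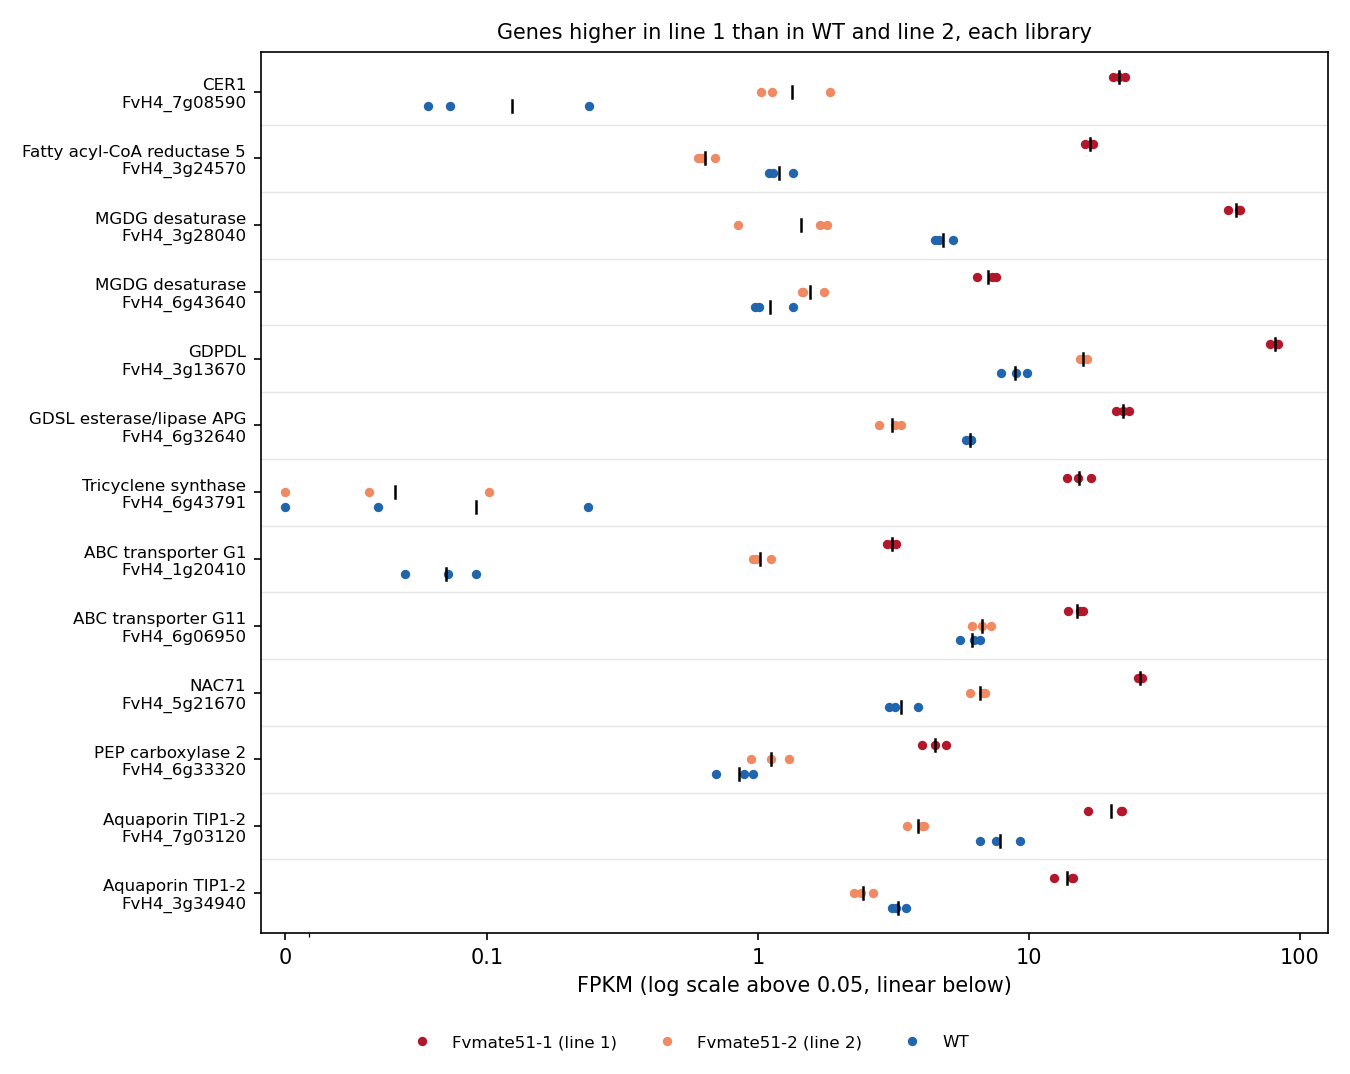
Levels of 13 genes that rose in line 1, in FPKM on a symmetric log axis (linear near 0), 1 point per library, with black ticks for means and line 1 above line 2 and WT in each row. CER1 FvH4_7g08590 lies at 20.4 to 22.7 FPKM in line 1 and at or below 0.239 FPKM in WT.

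The MATE family itself was split evenly. Of 62 listed members 26 were tested, and 7 were higher and 7 lower in line 1, with a median of 0.02, or -0.02 without line 1 replicate 2 and WT replicate 3. The most abundant, DETOXIFICATION 55 FvH4_4g18550, had 270.1, 237 and 273 FPKM in the line 1 libraries, against 171, 184 and 159 FPKM in the WT libraries and stood above line 2 as well (177 ± 7.76 FPKM, difference 0.55, adjusted p = 0.000608). DETOXIFICATION 40 FvH4_6g43220 had 0.219, 0.0852 and 0.0353 FPKM in line 1, 3.44 ± 0.112 FPKM in line 2 and 2.52, 2.80 and 2.88 FPKM in WT, a line 1 mean 24.2-fold lower than in WT. A more abundant gene of the same description listed nearby, FvH4_6g43260, did not pass the test (4.29 ± 0.319 FPKM in line 1 and 3.32 ± 0.919 FPKM in WT, adjusted p = 0.099), and its difference of 0.31 was 0.48 and passed without WT replicate 1 (adjusted p = 0.00773, range over the alternatives 0.00773 to 0.298).

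Several MATE genes are listed between 21961401 and 21998809 on chromosome 7 under the description DETOXIFICATION 35, a flavonoid transporter of the vacuole in Arabidopsis. FvH4_7g30080 had 25.8, 26.3 and 27.9 FPKM in line 1, 174 ± 4.41 FPKM in line 2 and 54.7, 53.7 and 54.6 FPKM in WT. FvH4_7g30023 fell to 2.36 ± 0.293 FPKM in line 1, against 19.0 ± 1.13 FPKM in WT, and the line 1 minus line 2 difference did not pass the test (0.28, adjusted p = 0.0586). FvH4_7g30070 (13.3 ± 1.10 FPKM in line 1 and 15.5 ± 2.01 FPKM in WT) did not pass the test but did without WT replicate 3 (adjusted p = 0.0218, range over the alternatives 0.00476 to 0.544), and FvH4_7g30073 was 1.71-fold higher (1.38 ± 0.258 FPKM in line 1 and 0.808 ± 0.0435 FPKM in WT), a call lost without line 1 replicate 1 (adjusted p = 0.0747, range over the alternatives 0.00272 to 0.0747). DETOXIFICATION 43 FvH4_7g01040, whose Arabidopsis relative carries citrate, had 6.89, 6.82 and 7.41 FPKM in line 1, 29.6 ± 0.898 FPKM in line 2 and 16.4, 17.7 and 16.2 FPKM in WT.

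Of the members that rose, DETOXIFICATION 48 FvH4_1g15940 had 4.58, 3.52 and 4.41 FPKM in line 1 and 0.579, 0.892 and 0.672 FPKM in WT and DETOXIFICATION 12 FvH4_4g26362 7.23, 6.83 and 6.99 FPKM in line 1 and 3.97, 4.43 and 3.92 FPKM in WT. DETOXIFICATION 33 FvH4_2g40430, whose Arabidopsis relative is a chloride channel of the vacuole, had 35.8, 35.2 and 37.7 FPKM in line 1 and 34.0, 35.8 and 36.6 FPKM in WT, with overlapping groups (adjusted p = 0.81).

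Among other carriers of the vacuole, aquaporins had 8 of 23 higher and 5 lower. Both genes described as TIP1-2, water channels of the vacuolar membrane, rose: FvH4_3g34940 had 14.4, 12.4 and 14.6 FPKM in line 1 and 3.22, 3.12 and 3.51 FPKM in WT and FvH4_7g03120 21.9, 16.5 and 22.1 FPKM in line 1 and 6.58, 7.57 and 9.29 FPKM in WT. Line 2 held 2.44 ± 0.206 and 3.90 ± 0.302 FPKM of them, and the difference between the lines was 2.10 log2 units in each. TIP1-1 FvH4_6g16770, the most abundant aquaporin, did not pass the test (1134 ± 196 FPKM in line 1 and 1355 ± 289 FPKM in WT), and the plasma membrane channels PIP-type 7a FvH4_7g24120 and PIP2-7 FvH4_2g15440 fell, with 220.1 ± 20.6 FPKM in line 1 and 399.9 ± 26.5 FPKM in WT for 7a and 1.48 ± 0.485 FPKM in line 1 and 7.15 ± 0.825 FPKM in WT for PIP2-7. Proton pumps, which power vacuolar uptake, had 5 of 29 higher (17.2%) and 7 lower (24.1%), near the shares of all genes tested (16.6% and 19.1%). For proton pumps, 2 were higher without line 1 replicate 3, 3 were higher without line 1 replicate 1 and 2 were lower without line 1 replicate 1. The vacuolar pyrophosphatase FvH4_6g07370 had 88.0, 75.8 and 93.5 FPKM in line 1 and 111, 114 and 110.0 FPKM in WT.

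In organic acid metabolism, 5 of 34 genes were higher and 10 lower. The tonoplast dicarboxylate transporter gene FvH4_3g00891, of a vacuolar malate carrier, had 63.1, 54.4 and 63.5 FPKM in line 1 and 232, 241 and 246 FPKM in WT (3.97-fold lower). Its line 1 minus line 2 difference was -0.12 (adjusted p = 0.272). Phosphoenolpyruvate carboxylase 2 FvH4_6g33320, which makes the precursor of malate, had 4.52, 4.03 and 4.96 FPKM in line 1 and 0.891, 0.963 and 0.703 FPKM in WT, and line 2 held 1.12 ± 0.180 FPKM (difference 1.38, adjusted p = 7.69e-06). Aluminum-activated malate transporter 2 FvH4_6g51860 rose to 2.52 ± 0.285 FPKM in line 1, against 0.668 ± 0.115 FPKM in WT.

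Sugar carriers had 5 of 26 higher and 8 lower, and carriers of amino acids, nitrate and peptides 12 of 60 higher and 20 lower. For sugar carriers, 2 were higher without line 1 replicate 1 and 3 were higher without line 1 replicate 3. The lysine histidine transporter-like 8 gene FvH4_1g10770, of an amino acid carrier, had 6.45, 5.12 and 6.43 FPKM in line 1, 34.1 ± 1.10 FPKM in line 2 and 26.0, 26.3 and 31.2 FPKM in WT. ERD6-like 7 FvH4_2g24290, of a family of sugar exporters of the vacuole, had 10.6, 8.65 and 10.04 FPKM in line 1 and 32.1, 27.2 and 28.9 FPKM in WT, and sugar carrier protein C FvH4_3g03900 38.1, 35.5 and 39.9 FPKM in line 1 and 96.5, 102 and 96.8 FPKM in WT. Sucrose and hexose enzymes had 10 of 35 higher (28.6%) and 4 lower (11.4%). For these enzymes, 6 were higher without line 1 replicate 3. Sucrose synthase 2 FvH4_2g26000 fell to 25.0 ± 0.506 FPKM in line 1, with 64.7 ± 1.41 FPKM in line 2 and 37.7 ± 3.92 FPKM in WT.

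Of 31 anthocyanin and flavonoid enzymes 13 were lower and 4 higher (median -0.23). For this list, 0 were higher without line 1 replicate 1, 1 was higher without line 1 replicate 3 and 2 were higher without WT replicate 1 or WT replicate 2. The late steps that make and glucosylate the red pigment were among them. Anthocyanidin 3-O-glucosyltransferase 1 FvH4_7g33840, which attaches the stabilising sugar, had 264, 196 and 285 FPKM in the line 1 libraries, against 500.4, 548 and 561 FPKM in the WT libraries (2.16-fold lower, adjusted p = 6.74e-05), and the groups did not overlap. Dihydroflavonol 4-reductase FvH4_2g39520 had 306, 328 and 303 FPKM in line 1 and 413, 426 and 450.1 FPKM in WT, and leucoanthocyanidin dioxygenase FvH4_5g01170 was 1.24-fold lower (1111 ± 15.9 FPKM in line 1 and 1374 ± 127 FPKM in WT). The call of the dioxygenase was lost under 4 of the alternative settings, among them quantile normalization and the fit without line 1 replicate 1 (adjusted p = 0.0569, range over the alternatives 0.00127 to 0.222). Line 2 held 184 ± 1.40 and 653 ± 9.19 FPKM of the reductase and the dioxygenase, and the line 1 minus line 2 differences of 0.76 and 0.77 log2 units passed the test.

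A pair of flavonoid 3-O-glucosyltransferase-type genes listed close together on chromosome 6 fell against WT and were also lower than in line 2. FvH4_6g39410 had 25.1, 26.7 and 26.3 FPKM in line 1, 81.4 ± 4.57 FPKM in line 2 and 49.5, 51.7 and 60.3 FPKM in WT, and FvH4_6g39401 had 0.970, 1.00 and 1.44 FPKM in line 1, 6.98 ± 0.468 FPKM in line 2 and 5.81, 6.80 and 9.04 FPKM in WT. Over all UDP-glycosyltransferases, which attach sugars to small molecules, 23 of 72 were lower and 11 higher. For the glycosyltransferases, 3 were higher without line 1 replicate 1 or line 1 replicate 3, 6 were higher without WT replicate 1 and 7 were higher without WT replicate 2. The 7-deoxyloganetin glucosyltransferase-type gene FvH4_6g39870 had 3.30, 3.60 and 3.84 FPKM in line 1 and 20.5, 18.7 and 23.6 FPKM in WT (5.85-fold lower).

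Phenylpropanoid and lignin genes had 9 of 33 higher and 7 lower. Laccase-9 FvH4_2g12590, an oxidase of lignin-like polymers, rose to 84.9 ± 8.54 FPKM in line 1, against 23.0 ± 3.01 FPKM in WT, and laccase-15 FvH4_1g24380 fell to 10.2 ± 1.01 FPKM in line 1, against 25.7 ± 2.46 FPKM in WT. Caffeoyl-CoA O-methyltransferase FvH4_1g13960 had 157, 169 and 157 FPKM in line 1 and 289, 283 and 339.9 FPKM in WT. Carotenoid and chlorophyll genes were split, 6 of 26 in each direction, and photosystem and light harvesting genes had 2 of 13 higher and 4 lower. For carotenoid and chlorophyll genes, 3 were higher without WT replicate 2. For photosystem genes, 2 were lower without line 1 replicate 3 or WT replicate 3. Phytoene synthase FvH4_6g38780, the entry enzyme of carotenoids, had 54.3, 54.3 and 57.4 FPKM in line 1 and 24.0, 23.7 and 21.3 FPKM in WT.

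Aroma genes showed single changes. Of 7 tested genes in the terpene synthase list 2 were higher and 2 lower. The largest rise in this list was 0.67 log2 units, so the list leaves out tricyclene synthase FvH4_6g43791, named above with a larger rise. Of 11 alcohol dehydrogenases, decarboxylases and furanone reductases 2 were higher and 5 lower. For these 11 genes, 1 was higher without line 1 replicate 1, WT replicate 1, WT replicate 2 or WT replicate 3, 2 were lower without line 1 replicate 1, line 1 replicate 3 or WT replicate 2 and 3 were lower without line 1 replicate 2. The germacrene D synthase FvH4_5g06470 had 1512, 1445 and 1534 FPKM in line 1 and 1175, 1226 and 1011 FPKM in WT, while a rarer gene of the same description, FvH4_7g33640, was at or near 0 in line 1 (0.0128, 0 and 0.0994 FPKM, against 2.49, 3.15 and 2.46 FPKM in WT). Alpha-pinene synthase FvH4_6g19300 overlapped between the groups (3416 ± 102 FPKM in line 1 and 3329 ± 543 FPKM in WT, adjusted p = 0.775). 2-methylene-furan-3-one reductase FvH4_6g50700, which makes the furanone of strawberry aroma, was 1.29-fold lower (5306 ± 193 FPKM in line 1 and 6849 ± 834 FPKM in WT), a call that was lost under 8 of the alternative settings, 4 of them with 1 library left out: without line 1 replicate 1 (adjusted p = 0.087), line 1 replicate 2 (adjusted p = 0.05003), line 1 replicate 3 (adjusted p = 0.059) or WT replicate 2 (adjusted p = 0.0539, range over the alternatives 0.00347 to 0.453). Acyltransferase Pun1 FvH4_4g17130, named for a pepper enzyme, had 7.08, 7.38 and 8.30 FPKM in line 1 and 0.346, 0.541 and 0.586 FPKM in WT.

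Lists of wall enzymes had members called in both directions, to be read against 16.6% higher and 19.1% lower over all genes tested. Expansins, xyloglucan endotransglucosylases and cellulases had 10 of 44 members each way (22.7%), and 14 higher and 16 lower without line 1 replicate 2 and WT replicate 3. For this list, 6 were higher without line 1 replicate 1. Expansin-A6 FvH4_3g36410, a wall-loosening protein, had 805, 674 and 817 FPKM in line 1 and 1056, 1094 and 1311 FPKM in WT, while endoglucanase FvH4_5g03220 had 159, 175 and 194 FPKM in line 1 and 83.6, 78.9 and 65.1 FPKM in WT and the xyloglucan enzyme FvH4_5g23180 224, 202 and 234 FPKM in line 1 and 94.4, 96.3 and 98.8 FPKM in WT. Pectin enzymes had 9 of 47 higher (19.1%) and 10 lower (21.3%), among them pectate lyase 18 FvH4_5g06720 (199 ± 19.0 FPKM in line 1 and 305 ± 18.1 FPKM in WT) and pectin acetylesterase 8 FvH4_5g24510 (34.4 ± 1.06 FPKM in line 1 and 76.7 ± 3.28 FPKM in WT). For pectin enzymes, 5 were higher without line 1 replicate 1, line 1 replicate 3 or WT replicate 1. Cellulose and xylan synthesis genes had 6 of 33 higher (18.2%) and 5 lower (15.2%). For cellulose and xylan genes, 2 were lower without line 1 replicate 2, line 1 replicate 3 or WT replicate 2 and 3 were lower without WT replicate 1. Of the secondary wall cellulose synthases, subunit 8 FvH4_3g07420 rose to 41.4 ± 2.33 FPKM in line 1, against 17.5 ± 2.67 FPKM in WT.

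Many genes of ribosomes, chromatin and DNA synthesis were lower in line 1. Of 169 cytosolic ribosomal protein genes tested 100 fell and 4 rose, with a median of -0.37 and a median length of 994 bases. WT replicate 3 stood 0.32 log2 units above its other replicates for this list, and without it 68 fell and 4 rose (median -0.25). Without line 1 replicate 2 and WT replicate 3 the counts were 123 and 3. For ribosomal protein genes, 2 were higher without line 1 replicate 2, 53 were lower without line 1 replicate 3 and 60 were lower without line 1 replicate 1. 40S S8 FvH4_2g18130 had 50.3, 56.1 and 44.3 FPKM in line 1 and 73.9, 76.7 and 82.1 FPKM in WT, and L31 FvH4_3g43260 39.2, 38.1 and 38.5 FPKM in line 1 and 56.9, 58.6 and 71.4 FPKM in WT. A copy of L27, FvH4_7g04670, fell to 11.4 ± 2.15 FPKM in line 1, against 21.8 ± 1.63 FPKM in WT, and held 171 ± 2.34 FPKM in line 2.

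Histone genes, whose products package new DNA, had 22 of 40 lower and 2 higher (median -0.39, median length 930 bases), or 21 lower and 3 higher without line 1 replicate 2 and WT replicate 3. For histones, 0 were higher without line 1 replicate 1, WT replicate 1 or WT replicate 2 and 1 was higher without line 1 replicate 2 or line 1 replicate 3. Histone H3.2 FvH4_3g39201 had 36.0, 37.9 and 37.7 FPKM in line 1 and 80.8, 85.4 and 105 FPKM in WT and H2AX FvH4_2g24430 43.9, 42.0 and 38.4 FPKM in line 1 and 83.5, 87.3 and 115 FPKM in WT. The replacement histone H3.3 FvH4_1g20270, which is made outside of DNA synthesis, was 1.27-fold higher (408 ± 47.5 FPKM in line 1 and 321 ± 24.9 FPKM in WT), a call that was lost without line 1 replicate 1 (adjusted p = 0.0524), line 1 replicate 2 (adjusted p = 0.0719), WT replicate 1 (adjusted p = 0.0834) or WT replicate 2 (adjusted p = 0.0733, range over the alternatives 0.00112 to 0.0834). DNA replication and mitosis genes had 25 of 48 lower and 3 higher (median -0.34), with a median length of 2460 bases. The counts without line 1 replicate 2 and WT replicate 3 were 25 lower and 3 higher. For replication and mitosis genes, 1 was higher without line 1 replicate 1 or line 1 replicate 3. MCM5 FvH4_1g01490, a subunit of the replicative helicase, had 8.03, 6.97 and 8.76 FPKM in the line 1 libraries, against 32.6, 29.3 and 24.9 FPKM in the WT libraries (3.66-fold lower, adjusted p = 9.89e-07). DNA primase FvH4_5g04460 had 3.52, 3.55 and 3.85 FPKM in line 1 and 14.5, 11.9 and 14.97 FPKM in WT, and polymerase alpha subunit B FvH4_4g24380 1.69, 1.60 and 1.89 FPKM in line 1 and 6.22, 6.52 and 5.50 FPKM in WT. Line 2 had means of 17.7, 7.92 and 3.45 FPKM of these 3 genes, and each line 1 minus line 2 difference passed the test.

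Heat shock proteins had 15 of 45 lower and 4 higher. For heat shock proteins, 1 was higher without line 1 replicate 1 or line 1 replicate 3 and 2 were higher without WT replicate 2 or WT replicate 3. HSP83 FvH4_7g30260, a chaperone of the HSP90 class, had 71.1, 58.0 and 75.1 FPKM in line 1 and 129, 138 and 127 FPKM in WT.

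Among transcription factor lists, NAC genes had the largest share of higher members, 12 of 29, with 2 lower. For NAC genes, 1 was lower without line 1 replicate 1, line 1 replicate 2, line 1 replicate 3, WT replicate 1 or WT replicate 2. NAC71 FvH4_5g21670 had 25.8, 25.3 and 26.2 FPKM in the line 1 libraries, against 3.20, 3.89 and 3.05 FPKM in the WT libraries (7.62-fold higher, adjusted p = 1.46e-08). Line 2 held 6.57 ± 0.438 FPKM. NAC56 FvH4_3g20700, the most abundant, was 1.21-fold lower (1152 ± 105 FPKM in line 1 and 1397 ± 94.8 FPKM in WT), a call that 10 alternative settings ended, among them the fits without line 1 replicate 1 (adjusted p = 0.0624), line 1 replicate 2 (adjusted p = 0.0798), line 1 replicate 3 (adjusted p = 0.057), WT replicate 1 (adjusted p = 0.0992) or WT replicate 2 (adjusted p = 0.112, range over the alternatives 0.00206 to 0.267). The bHLH factors had 10 of 36 higher and 2 lower, and homeodomain factors 11 of 40 higher and 5 lower. ATHB-6 FvH4_1g20230, of the abscisic acid response in Arabidopsis, fell to 0.553, 0.487 and 0.9004 FPKM in line 1, against 149, 148 and 127 FPKM in WT, and the line 1 minus line 2 difference did not pass the test (-0.22, adjusted p = 0.183). AP2/ERF factors had 7 of 37 higher (18.9%) and 11 lower (29.7%). For AP2/ERF factors, 6 were lower without line 1 replicate 1 and 7 were lower without WT replicate 3. DREB-type FvH4_7g28950 held 7.09, 10.1 and 6.90 FPKM in line 1, 0.231 ± 0.310 FPKM in line 2 and 17.2, 18.3 and 23.0 FPKM in WT. MYB factors had 9 of 33 higher and 5 lower, and MADS-box and SPL factors 4 of 17 in each direction. For MADS-box and SPL factors, 2 were lower without line 1 replicate 1, WT replicate 1 or WT replicate 3.

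Growth hormone genes showed a few larger changes. Gibberellin genes had 5 of 10 higher and 1 lower, or 6 higher and 2 lower without line 1 replicate 2 and WT replicate 3. For gibberellin genes, 2 were lower without line 1 replicate 1 or line 1 replicate 3. The receptor GID1C FvH4_6g04960 had 233, 198 and 226 FPKM in line 1 and 140.4, 146 and 160.4 FPKM in WT, and the synthesis enzyme gibberellin 20 oxidase 1 FvH4_7g28670 8.19, 6.75 and 8.09 FPKM in line 1 and 4.34, 4.72 and 5.24 FPKM in WT. Both were higher than in line 2 (102 ± 0.820 and 3.29 ± 0.275 FPKM), by 1.09 and 1.01 log2 units. Gibberellin 2-beta-dioxygenase 1 FvH4_3g16760, which inactivates the hormone, rose as well (56.8 ± 2.82 FPKM in line 1 and 42.6 ± 1.03 FPKM in WT). Auxin genes had 12 of 52 higher (23.1%) and 14 lower (26.9%). For auxin genes, 8 were lower without line 1 replicate 3. The efflux carrier component 5 gene FvH4_6g00660 rose (10.9 ± 2.65 FPKM in line 1 and 3.45 ± 0.564 FPKM in WT) and the repressor gene IAA9 FvH4_1g18900 fell (42.8 ± 2.84 FPKM in line 1 and 72.6 ± 5.67 FPKM in WT). Abscisic acid genes had 15 of 70 higher (21.4%) and 8 lower (11.4%). For abscisic acid genes, 8 were higher without line 1 replicate 1 and 5 were lower without line 1 replicate 1. The kinase SAPK1 FvH4_1g20310 was higher (63.8 ± 7.57 FPKM in line 1 and 39.1 ± 3.02 FPKM in WT) and SAPK3 FvH4_5g20490 lower (15.9 ± 0.354 FPKM in line 1 and 23.5 ± 0.2204 FPKM in WT).

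Iron and metal genes had 6 of 16 higher and 3 lower. Ferritin FvH4_6g10770, the plastid iron store, had 3.17, 4.64 and 3.54 FPKM in line 1, 199 ± 8.29 FPKM in line 2 and 12.6, 13.6 and 12.1 FPKM in WT, a line 1 minus line 2 difference of -5.40. ORG2 FvH4_2g11650, a factor that rises in iron-starved Arabidopsis, had 14.6, 17.0 and 17.3 FPKM in line 1 and 9.49, 8.32 and 8.31 FPKM in WT, and line 2 held 0.160 ± 0.104 FPKM. The 2 genes thus separated line 1 from line 2 in opposite directions. Ferric reduction oxidase 2 FvH4_7g14960, a root iron uptake enzyme in Arabidopsis, rose to 2.57 ± 0.0620 FPKM in line 1, against 0.580 ± 0.0896 FPKM in WT. The exporter-type gene solute carrier family 40 member 2 FvH4_6g10490 rose to 13.7 ± 1.42 FPKM in line 1, against 1.96 ± 0.120 FPKM in WT, and the line 1 minus line 2 difference did not pass the test (0.22, adjusted p = 0.115). Metallothionein-like protein 1 FvH4_3g20030, the most abundant member, had 10220.0, 13800.0 and 9989 FPKM in line 1 and 6557, 6710.2 and 8240.4 FPKM in WT.

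Abundant genes without a list also moved. A lipid-transfer domain gene, FvH4_7g26430, had 246, 301 and 226 FPKM in line 1 and 610.4, 605 and 754 FPKM in WT, and the pectin methylesterase inhibitor domain gene FvH4_7g27850 149.99, 135 and 138 FPKM in line 1 and 331, 373 and 415 FPKM in WT. The 3-hydroxyisobutyryl-CoA hydrolase-type gene FvH4_7g09160 had 109, 97.8 and 103 FPKM in line 1, 519 ± 9.48 FPKM in line 2 and 259.9, 260.2 and 281 FPKM in WT. Rises among abundant genes included peamaclein FvH4_2g33410, a small cysteine-rich peptide of the gibberellin-regulated family, with 439, 563 and 407 FPKM in line 1 and 229.6, 243 and 303 FPKM in WT. Phenylacetaldehyde reductase FvH4_7g01564, an aroma alcohol enzyme in other plants, had 435, 532 and 433 FPKM in line 1 and 235, 231 and 269.9 FPKM in WT, and the raffinose synthase-type gene FvH4_6g23550 221, 196 and 227 FPKM in line 1 and 115, 121 and 109.9 FPKM in WT. These 3 rises exceeded line 2 as well, by 0.76, 0.66 and 0.54 log2 units (adjusted p = 0.00154, 0.000533 and 0.000318).

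Some transcripts had no fragment in a genotype. At 0 in all 3 line 1 libraries were 26 tested genes, while 5 were at 0 in all 3 WT libraries. ATP-citrate synthase alpha chain protein 2 FvH4_3g10370 had 0 FPKM in each line 1 library, against 26.1, 24.3 and 25.2 FPKM in WT, at least 146-fold lower when each line 1 library is set to 3 fragments (counting error only). Line 2 held 0.0168 ± 0.0290 FPKM of this gene. Of the 26 genes 13 lie on chromosome 3, and 5 of these lie between 6037670 and 6098666.

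Most tested genes on unplaced contigs were higher. Of 83 listed, 34 were tested, with 27 higher and 2 lower (median 1.60). For these genes, 1 was lower without line 1 replicate 1, line 1 replicate 2, line 1 replicate 3, WT replicate 1 or WT replicate 2. Their descriptions are mostly those of plastid and mitochondrial genes or of open reading frames within ribosomal DNA. Chloroplast ribosomal protein S7 FvH4_c3g00120 had 11.96, 60.6 and 22.4 FPKM in line 1 and 1.498, 4.61 and 6.05 FPKM in WT, and NADH dehydrogenase iron-sulfur protein FvH4_c1g00130 4.91, 14.5 and 7.71 FPKM in line 1 and 1.13, 1.90 and 0.665 FPKM in WT. Line 1 replicate 2 was the highest of the 3 line 1 libraries in 26 of the 34 genes. Without it and WT replicate 3 the counts were 17 higher and 2 lower, with a median of 1.25. The call of the chloroplast S7 gene was lost without line 1 replicate 2 (adjusted p = 0.0569) or WT replicate 1 (adjusted p = 0.0555, range over the alternatives 0.0111 to 0.0569). Line 2 held 13.5, 3.81 and 29.0 FPKM of the S7 transcript, against a WT mean of 4.05 FPKM. The share of fragments outside the listed genes was 4.59, 10.1 and 4.49% in line 1, 1.496, 0.0990 and 0.661% in line 2 and 3.71, 2.35 and 1.78% in WT. The part of this share in the result was not tested.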

How the data were processed

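Poly(A) RNA of fruits at 26 days post anthesis was sequenced as 9 libraries, 3 each of Fvmate51-1, Fvmate51-2 and WT, per the labels' protocols. The FPKM values were made and deposited by the authors as 1 table of 34777 genes, and the submitters' processing notes name featureCounts 2.0.6, StringTie 2.2.3, HISAT2 2.2.1 and fastp with no order. The genome build is not given in the sources used here, and positions are as listed. Values times gene length were whole multiples of 1 step per library (tolerance 0.02), which gave fragments and hence depth. The number of unmapped value columns was 0.

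From the FPKM values, log2(FPKM + 1) was fitted with limma 3.58.1 (limma-trend, R 4.3.3) on all 9 libraries with 3 group means. Genes with at least 1 FPKM in 3 or more of the 6 line 1 and WT libraries were tested, two-sided, with Benjamini-Hochberg adjustment over all 15495 and a threshold of 0.05. Folds are ratios of mean FPKM; log2 differences understate the change of low genes. Floors cover counting error only. Between libraries of a group, mean chi-square per gene was 5.97 to 55.0, so none was counted as a copy.

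Named genes are examples from a rule over genes that carry a description or a domain: the 15 largest rises and falls, 4 members per list with the lowest adjusted p, the 10 largest rises and falls among genes of at least 100 FPKM, the 8 largest differences each way from line 2, every tested MATE gene and the most abundant member of each list. Members of families not in these lists, genes on contigs and genes at 0 were named after their values were seen. The members and the 45 lists were chosen with earlier results of these data known. The fit was tested on simulated data, and 18 alternatives were run.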

Additional observations from a re-analysis of the deposited data

Results flagged for a closer look

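The 16 genes here were called in line 1 against WT and also differed between the lines, by the limma contrast line 1 minus line 2 with adjustment over all genes tested. They are the 8 most negative and the 8 most positive differences by the rule for named genes, and each value is in log2(FPKM + 1).

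The negative differences belonged mostly to defence genes. They were -6.62 for thaumatin-like protein 1a FvH4_6g16950, -6.14 for endochitinase EP3 FvH4_4g10610, -5.53 for the basic secretory protease FvH4_2g05020 and -5.40 for ferritin FvH4_6g10770. Further ones were -5.32 for the allergen gene FvH4_4g19040, -5.09 for the glucanase FvH4_3g28370, -4.70 for glutathione S-transferase U9 FvH4_5g15020 and -4.64 for PR-4A FvH4_3g05950. In ferritin, line 1 held 3.78 ± 0.767 FPKM and line 2 199 ± 8.29 FPKM (adjusted p = 3.63e-10).

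The positive differences included lipid genes. They were 4.62 for the desaturase gene FvH4_3g28040, 3.96 for tricyclene synthase FvH4_6g43791, 3.90 for ORG2 FvH4_2g11650 and 3.44 for fatty acyl-CoA reductase 5 FvH4_3g24570. Further ones were 3.29 for CER1 FvH4_7g08590 and 2.49 for the lipase APG FvH4_6g32640.

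A pair of genes with positive differences was nonetheless lower in line 1 than in WT. The DREB-type factor FvH4_7g28950 had a line 1 minus line 2 difference of 2.88, and FvH4_1g07981, listed with a DDE superfamily domain, one of 2.65. The last held 24.6, 21.6 and 25.5 FPKM in line 1, 2.96 ± 0.118 FPKM in line 2 and 27.3, 30.5 and 30.9 FPKM in WT, and its call against WT was lost without line 1 replicate 2 (adjusted p = 0.0565) or WT replicate 2 (adjusted p = 0.0654, range over the alternatives 0.00607 to 0.104).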

How the results depend on the processing

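The number of genes called stayed within 1.5 times of 5525 under all 18 alternatives, and it was 4188 with the 6 libraries only and 7672 with array weights. With 1 library left out it was 4084 to 5303, with 1798 to 2434 higher and 2286 to 2912 lower, and without line 1 replicate 2 and WT replicate 3 together it was 2783 higher and 3112 lower. Among genes with a mean of at least 5 FPKM, of which fewer were tested, 1617 were higher. The share of called genes that were higher was 46.4% as reported, 48.2% with no filter, 42.7% at a mean of at least 5 FPKM, 48.4% with median-of-ratios scaling, 62.1% with equal FPKM totals, 51.0% with quantile normalization, 57.2% with voom and 43.9 to 47.4% with 1 library left out. The cause of these moves was not tested. The 685 genes called at 2-fold or more became 1130 with a pseudocount of 0.1, 357 at a mean of at least 5 FPKM, 1223 with voom and 655 to 745 with 1 library left out.

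The labels link line 1 and WT libraries by replicate number only. Deviations from the group means correlated at 0.0958, -0.198 and -0.186 for the same number and at -0.114 to 0.219 for unlike numbers. With 3 libraries per group, such correlations cannot decide whether libraries of a number shared a batch. With a replicate block 4563 genes were called. Of 234 named genes called, 212 were called under every alternative that tested them. Over 4729 values of named genes under alternatives, 4610 kept direction and call, 92 lost the call, 27 gained it and 0 changed direction when called. Of 810 list medians under alternatives 609 moved by less than the spread between replicates and 201 by more. Sequencing depth limits the genes near 1 FPKM, and a gene at 0 is not shown to be silent.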

Other observations

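Some protein families outside the lists also moved. They were singled out after their values were seen, so their counts are descriptions, to be read against 16.6% higher and 19.1% lower over all genes tested. Of 12 tested 2-hydroxyacid dehydrogenases 8 were lower and 1 higher (median -0.87), with the same counts and a median of -0.79 without line 1 replicate 2 and WT replicate 3. The 4 tested genes described as glyoxylate/hydroxypyruvate reductase HPR3, listed close together on chromosome 7, were all lower. Their line 1 minus line 2 differences (-0.29, 0.14, -0.02 and -0.13) did not pass the test. Of these 4 genes FvH4_7g12581 had 2.05, 2.47 and 2.03 FPKM in line 1, 2.24 ± 0.417 FPKM in line 2 and 7.62, 8.44 and 8.80 FPKM in WT. Mitochondrial formate dehydrogenase FvH4_6g50630, which oxidises formate, had 174, 144 and 172 FPKM in line 1 and 291, 305 and 317 FPKM in WT. The member that rose, phosphoglycerate dehydrogenase 1 FvH4_2g05310 of serine synthesis, had 493, 333 and 502 FPKM in line 1 and 268, 293 and 269.8 FPKM in WT.

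Tubulins and their plastid relatives FtsZ, the proteins of the microtubules and of the plastid division ring, had 9 of 15 lower and 2 higher (median -0.33), or 8 lower and 3 higher without line 1 replicate 2 and WT replicate 3 (median -0.19). Leaving out 1 library gave 1 to 3 higher and 6 to 9 lower, with 1 higher without line 1 replicate 1, line 1 replicate 3, WT replicate 1 or WT replicate 2. Beta-7 FvH4_3g10680 had 43.8, 37.2 and 45.1 FPKM in line 1, 61.8 ± 1.22 FPKM in line 2 and 76.8, 87.3 and 87.4 FPKM in WT, and an alpha chain, FvH4_1g18660, had 271, 248 and 271 FPKM in line 1, 258 ± 4.21 FPKM in line 2 and 357, 384 and 401 FPKM in WT. FtsZ 2-1 FvH4_6g18610 was higher (43.4 ± 2.40 FPKM in line 1 and 36.9 ± 0.376 FPKM in WT).

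Oligopeptide and metal-nicotianamine transporters had 7 of 11 higher and 2 lower (median 0.36), with the same counts without line 1 replicate 2 and WT replicate 3. The lower count was 1 without line 1 replicate 1, line 1 replicate 2, WT replicate 1 or WT replicate 2. Oligopeptide transporter 3 FvH4_3g00400, which loads iron and copper into the phloem in Arabidopsis, had 143, 113 and 147 FPKM in line 1, 168 ± 9.17 FPKM in line 2 and 67.6, 69.1 and 59.5 FPKM in WT. YSL1 FvH4_5g10970, a carrier of metal-nicotianamine complexes, went the other way, with 66.1, 61.2 and 65.6 FPKM in line 1, 119 ± 2.44 FPKM in line 2 and 101, 101 and 100.5 FPKM in WT.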
